A study of Mus musculus with 8 samples.

Results

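Chemokine ligands are small secreted proteins that guide leukocytes along concentration gradients. They act through G protein-coupled receptors on the responding cells, while atypical receptors bind the same ligands without that signal and shape how much of each ligand is free. In adipose tissue they are known for drawing monocytes, neutrophils and lymphocytes out of the blood and for holding resident cells in place. The chemokine ligand genes of brown adipose tissue (BAT) were taken here as every gene of the deposited count table whose name is Ccl or Cxcl followed by a number, together with Cx3cl1 and Xcl1, which gave 39 of 56953 genes. The platelet chemokine genes Pf4 and Ppbp carry other names and were therefore not among them.

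The RNA came from BAT of wild-type C57BL/6J mice aged 8 to 10 weeks at injection, either male or female, with the sex of each animal not stated. The 4 CTR mice were injected with PBS and the 4 CAC mice with 3000000 LLC cells, a Lewis lung carcinoma line, under the skin of the right flank, and they were monitored for 21 days. Each mouse gave 1 library, so CTR and CAC differ by the whole tumor-bearing state and not by any single factor released from the tumor. Total counts ranged from 2454493 to 4827956 per CTR library and from 1823167 to 3392538 per CAC library. Counts were scaled for library size with TMM factors and are given as CPM. A count of 0 still allows up to 3 counts by counting error, which is 0.661 to 1.62 CPM depending on the library. The summed level of 10 brown adipocyte markers was 16100 to 17900 CPM in CTR and 15600 to 18000 CPM in CAC, carried mainly by Cidea, Ucp1 and Fabp4. Within this list the coactivator gene Ppargc1a rose (log2 fold change 0.73, edgeR adjusted p = 0.0201, and up to 0.0877 when CTR replicate 1, CTR replicate 2 or CAC replicate 3 was left out), while Plin1 (-0.27, adjusted p = 0.192) and Cox7a1 (-0.22, adjusted p = 0.292) were lower in every CAC library without passing the test. For blood and muscle genes, 6 erythrocyte markers summed to 6180 to 19300 CPM in CTR and 14600 to 44300 CPM in CAC and 8 skeletal muscle markers to 888 to 2420 CPM and 1910 to 4030 CPM, and their part in the results below was not tested.

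Of the 39 genes, 31 had a value above 0 in at least 1 library, 16 had at least 10 counts over the 8 libraries and were taken as detectable, and 7 passed edgeR's low-count filter and could be tested across all genes. The 39 genes together held 1844.23 counts in CTR and 1761.6 counts in CAC, where the CTR libraries were deeper (13610587 counts in all, against 10137441 in CAC). Cxcl12 alone gave 31.8% of the counts of the family, Ccl6 18.7%, Ccl27a 12.5%, Cxcl9 7.7% and Cxcl14 7.0%, and the 7 tested genes gave 85.4%. These are shares of counts pooled over both groups, with no adjustment for transcript length. The order differed by group. Cxcl9 had 183 counts in CTR, above Cxcl14 (133) and Ccl8 (56), but 96 in CAC, below Cxcl14 (119) and Ccl8 (112). The shares describe where the counts of the family lie, not which ligand is most abundant per transcript.

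**Figure D1:**
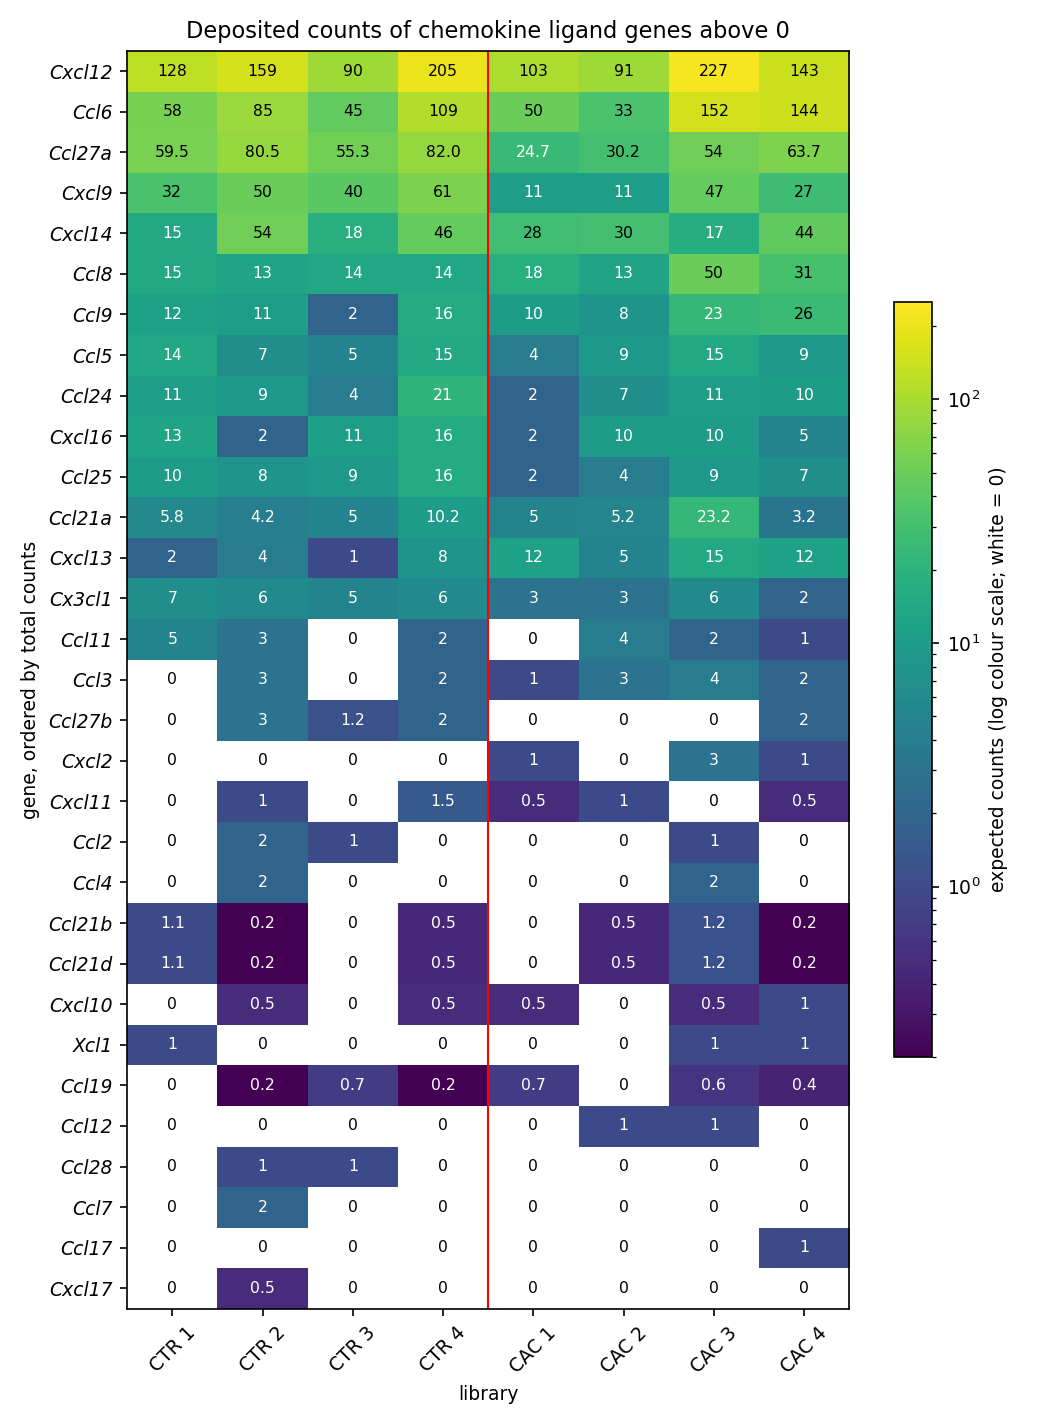
Deposited expected counts (colour, log scale, with the value printed in each cell) of the 31 chemokine ligand genes above 0, with genes in rows ordered by total counts and the 8 libraries in columns (CTR left of the red line, CAC right). Only 14 genes were above 0 in all 8 libraries, and the 15 rows from Ccl27b down hold between 0 and 3 counts per library.

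The genes lie mostly in clusters. On chromosome 11 of GRCm38, Ccl2, Ccl7, Ccl11, Ccl12, Ccl8 and Ccl1 occupy 82035571 to 82305690, and Ccl5, Ccl9, Ccl6, Ccl3 and Ccl4 occupy 83525778 to 83664683. On chromosome 5, the neutrophil attractants Cxcl5, Cxcl3, Cxcl15, Cxcl1 and Cxcl2 occupy 90759360 to 90905938, and the interferon-inducible Cxcl9, Cxcl10 and Cxcl11 occupy 92321347 to 92365485. Neighbouring genes had very different counts, since Ccl8 had 168 counts over the 8 libraries while Ccl2, Ccl7 and Ccl12 of its cluster had 4, 2 and 2, and Cxcl9 had 279 counts while Cxcl10 and Cxcl11 had 3 and 4.5.

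Promoters are shown for the 4 genes of the family with the lowest p-values in the edgeR fit that kept genes with low counts (Ccl8, Ccl6, Cxcl13 and Ccl9), and for Cxcl1 and Cxcl2, a pair of neutrophil attractants at or near 0 counts. Each is the 300 bases from 250 before to 50 after the transcription start in RefSeq, build GRCm38.p6, written 5′ to 3′ on the strand of the gene. Capitals mark the letters of any motif found in a search of both strands for GAGGAA (PU.1), TGANTCA (AP-1), TTGCNNAA (C/EBP), TTCNNNGAA (GAS) and the ISRE core and kappaB motifs. The positions are chr11:82114935-82115234, + strand, for Ccl8; chr11:83578587-83578886, - strand, for Ccl9; chr11:83593038-83593337, - strand, for Ccl6; chr5:95956689-95956988, + strand, for Cxcl13; chr5:90890995-90891294, + strand, for Cxcl1; and chr5:90903649-90903948, + strand, for Cxcl2.
Ccl8: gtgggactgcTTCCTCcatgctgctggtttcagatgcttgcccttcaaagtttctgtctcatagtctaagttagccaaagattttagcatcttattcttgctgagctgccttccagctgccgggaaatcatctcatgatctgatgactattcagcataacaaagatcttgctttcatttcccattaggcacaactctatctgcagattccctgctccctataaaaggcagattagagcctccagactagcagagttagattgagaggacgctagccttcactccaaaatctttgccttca
Ccl9: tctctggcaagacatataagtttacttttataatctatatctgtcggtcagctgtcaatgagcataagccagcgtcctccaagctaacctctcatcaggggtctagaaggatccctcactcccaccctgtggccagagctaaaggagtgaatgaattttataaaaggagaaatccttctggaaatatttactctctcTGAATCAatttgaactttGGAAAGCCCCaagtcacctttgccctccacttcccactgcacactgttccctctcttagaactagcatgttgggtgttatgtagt
Ccl6: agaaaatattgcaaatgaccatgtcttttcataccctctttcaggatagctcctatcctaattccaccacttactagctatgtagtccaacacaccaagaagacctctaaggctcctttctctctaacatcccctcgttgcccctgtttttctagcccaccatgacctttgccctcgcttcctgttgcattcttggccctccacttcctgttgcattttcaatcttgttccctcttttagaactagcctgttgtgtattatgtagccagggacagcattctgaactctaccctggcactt
Cxcl13: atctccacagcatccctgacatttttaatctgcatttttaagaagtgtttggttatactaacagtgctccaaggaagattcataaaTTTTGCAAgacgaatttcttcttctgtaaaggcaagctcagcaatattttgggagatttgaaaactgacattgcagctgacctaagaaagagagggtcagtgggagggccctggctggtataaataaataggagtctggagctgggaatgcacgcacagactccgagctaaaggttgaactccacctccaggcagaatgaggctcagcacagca
Cxcl1: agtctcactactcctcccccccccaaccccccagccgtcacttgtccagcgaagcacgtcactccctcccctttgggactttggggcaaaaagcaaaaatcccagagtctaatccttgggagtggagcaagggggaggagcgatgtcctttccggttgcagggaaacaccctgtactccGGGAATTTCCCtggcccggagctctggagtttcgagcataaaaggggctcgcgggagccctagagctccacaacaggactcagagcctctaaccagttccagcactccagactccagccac
Cxcl2: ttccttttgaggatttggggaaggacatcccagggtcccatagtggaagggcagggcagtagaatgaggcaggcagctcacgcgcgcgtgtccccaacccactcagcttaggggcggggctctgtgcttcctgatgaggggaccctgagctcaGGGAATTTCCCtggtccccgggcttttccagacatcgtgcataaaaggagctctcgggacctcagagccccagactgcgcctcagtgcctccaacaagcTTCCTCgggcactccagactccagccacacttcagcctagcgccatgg
The Ccl8 promoter held 1 match, to PU.1 at -240 from the start. Ccl9 held an AP-1 match at -53 and a kappaB match at -35, and Cxcl13 a C/EBP match at -164. The Ccl6 window held none of these letters. Cxcl1 and Cxcl2 each held overlapping kappaB matches, starting at -71 and -70 in Cxcl1 and at -97 and -96 in Cxcl2, and Cxcl2 also held a PU.1 match at 3. RefSeq promoters matched 28 of the 39 genes (34 promoters, since some genes have several). Among them 8 held a kappaB match (23.5%, against 8.5% of all 32851 promoters), 14 held PU.1 (41.2%, against 28.3%), 7 held AP-1 (20.6%, against 7.8%), 7 held C/EBP (20.6%, against 10.8%), 2 held GAS (5.9%, against 8.3%) and 3 held the ISRE core (8.8%, against 3.4%). Near-identical gene copies share promoters in this set, and overlapping windows of the same gene, as for Ccl27a and Ccl27b, count separately. Such repeats can raise these shares, and the C/EBP matches came only from Ccl21a, Ccl21d, Ccl27a, Ccl27b and Cxcl13. A match is a string of letters, not a bound site.

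The monocyte attractant Ccl8 was the chemokine ligand gene that differed between CAC and CTR after adjustment over all genes. By the quasi-likelihood test of edgeR (adjusted p below 0.05, Benjamini-Hochberg), 1 of the 7 tested genes was higher in CAC and none was lower, where 0.739% of the 9876 genes tested were called higher and 0.192% lower. At an unadjusted p below 0.05, 4 of the 7 genes were higher (Ccl8, Ccl9, Ccl6 and Cxcl12), against 7.01% of all genes, and 1 (Cxcl9) was lower, against 5.93%. The filter keeps a gene that reaches 3.52 CPM (before TMM scaling) in any 4 libraries, so a gene seen mainly in CAC could pass through that group alone. Of the 7 genes this was so for Ccl9, which reached that level in 1 CTR and 4 CAC libraries. For Ccl8, which reached it in 3 CTR and 4 CAC libraries, the CAC group alone sufficed and the CTR group alone did not. The other genes reached it in all 8. The median log2 fold change of the 7 genes was 0.37, beside 0.00 over all genes tested.

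Ccl8 (ENSMUSG00000009185.3) lies on chromosome 11 from 82115185 to 82116799 on the + strand, overlaps no other exon and shares no 75-base stretch with another transcript. It is grouped here with the CCR2 ligands of its gene cluster, and the mouse protein is also known as a ligand of CCR8. It had 15, 13, 14 and 14 counts in the CTR libraries 1 to 4 and 18, 13, 50 and 31 counts in the CAC libraries 1 to 4. Scaled to depth these were 5.4, 3.46, 5.81 and 3.09 CPM in CTR and 9.73, 6.91, 14.7 and 10.8 CPM in CAC. Every CAC library was above every CTR library, and CAC replicate 3 was the highest. The mean level rose from 4.44 ± 1.36 CPM (SD, n = 4 mice) to 10.5 ± 3.2 CPM, a log2 fold change of 1.36 (SE 0.28) with an edgeR adjusted p of 0.0188. The adjusted p rose to 0.106 without CAC replicate 3, 0.0738 without CTR replicate 2, 0.0577 without CTR replicate 4 and 0.0503 in limma-trend, with log2 fold changes of 1.13, 1.26, 1.2 and 1.18. In bulk tissue, more cells of a type that makes Ccl8 and more Ccl8 RNA per cell cannot be told apart.

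Macrophage genes moved with Ccl8. Of 16 macrophage and monocyte markers none was at 0 in all libraries, and 9 could be tested. All 9 had a positive log2 fold change, with a median of 0.62. In edgeR, 3 rose past the adjusted threshold, against 0.739% of all genes tested. Among them were the complement genes C1qa (0.83, adjusted p = 0.00103) and C1qb (0.98, adjusted p = 0.00137). The related gene C1qc overlapped between groups (0.33, edgeR adjusted p = 0.637). The summed level of the list was 224 to 253 CPM in CTR and 315 to 438 CPM in CAC. Per 1000 counts of this list, a scale chosen after seeing the data, Ccl8 had 21.4, 14.1, 25.9 and 12.2 counts in CTR and 26.5, 21.9, 33.5 and 28.0 in CAC. On that scale the groups overlapped, because CAC replicate 2 lay below CTR replicate 3, and the log2 ratio of the means was 0.58. The part of the macrophage markers in the Ccl8 difference was not tested further.

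The other members of the CCR2 ligand group were at the edge of detection. Ccl2, the classical monocyte attractant, had 2 counts in CTR replicate 2 and 1 count in each of CTR replicate 3 and CAC replicate 3, and was at 0 in the other libraries. Ccl7 had 2 counts in CTR replicate 2 only, and Ccl12 had 1 count in each of CAC replicates 2 and 3. None of these genes was called in the fit with no low-count filter, and so few counts leave a difference in them unresolved. Ccl8 therefore accounted for nearly all of the group, which summed to 61 counts in CTR and 115 in CAC.

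Among the inflammatory CC ligands, Ccl9 and Ccl6, both ligands of CCR1 made by myeloid cells, had higher means in CAC but did not pass the adjusted threshold. Ccl9 (ENSMUSG00000019122.9; chromosome 11, 83572919 to 83578636, - strand) had 12, 11, 2 and 16 counts in CTR and 10, 8, 23 and 26 in CAC. In CPM these were 4.32, 2.93, 0.83 and 3.53 in CTR and 5.41, 4.25, 6.74 and 9.06 in CAC, so that CAC replicate 2 lay just below CTR replicate 1 and the remaining CAC libraries lay above all of CTR. The log2 fold change was 1.12 (SE 0.35, edgeR unadjusted p = 0.00431, adjusted p = 0.146). Ccl6 (ENSMUSG00000018927.4; chromosome 11, 83587882 to 83593087, - strand) was more variable. It had 58, 85, 45 and 109 counts in CTR and 50, 33, 152 and 144 in CAC, or 20.9, 22.6, 18.7 and 24.0 CPM in CTR and 27.0, 17.5, 44.5 and 50.2 CPM in CAC. CAC replicates 3 and 4 stood far above CTR and CAC replicate 2 below it, which gave 21.6 ± 2.32 CPM in the CTR mice and 34.8 ± 15.2 CPM in the CAC mice (mean ± SD, n = 4). Its log2 fold change was 0.73 (SE 0.27, edgeR adjusted p = 0.284), and the adjusted p was 0.0165 without CAC replicate 2 and 0.0017 in the fit with no low-count filter. Per 1000 counts of the macrophage list, Ccl6 had means of 88.2 ± 6.06 in CTR and 90.3 ± 32.6 in CAC, and Ccl9 had 11.7 ± 5.73 and 16.8 ± 4.53 (SD, n = 4 mice).

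**Figure D2:**
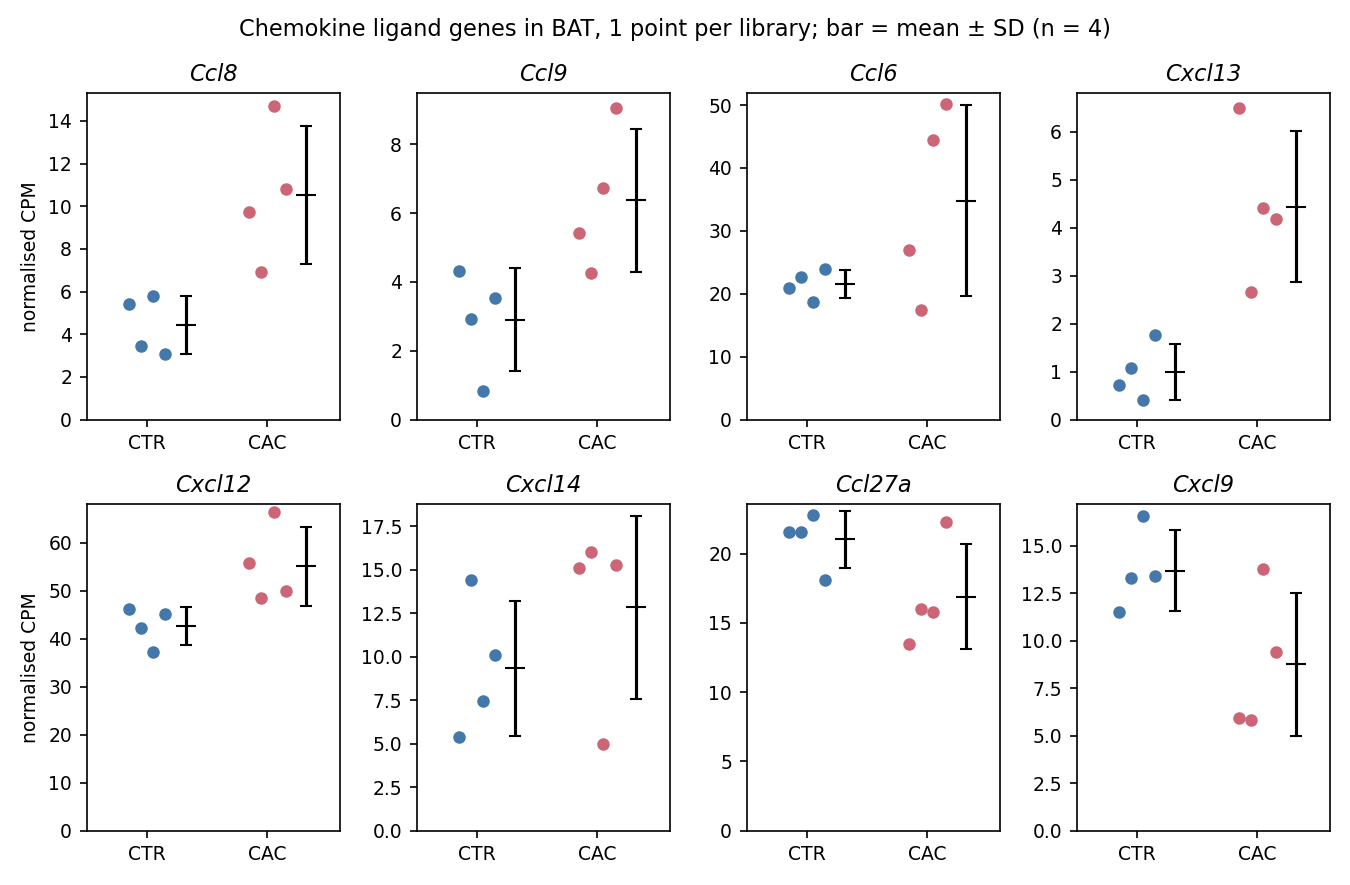
Normalised CPM (y axis, linear from 0) of 8 chemokine ligand genes, with 1 point per library ordered from replicate 1 to 4, CTR in blue and CAC in red, and the mean ± SD of 4 mice beside the points. All CAC points lie above all CTR points for Ccl8, Cxcl13 and Cxcl12, and the groups overlap for the other 5 genes.

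The remaining genes of this group were at or below a few CPM. Ccl5, a T cell and monocyte attractant, had 14, 7, 5 and 15 counts in CTR and 4, 9, 15 and 9 in CAC. Ccl24, an eosinophil attractant acting through CCR3, had 11, 9, 4 and 21 counts in CTR and 2, 7, 11 and 10 in CAC. Ccl11, which acts through the same receptor, had 5, 3, 0 and 2 counts in CTR and 0, 4, 2 and 1 in CAC. The groups overlapped for all of these, with exact two-sided permutation p-values on CPM (n = 4 against 4) of 0.6286 for Ccl5, 0.8 for Ccl24 and 1.0 for Ccl11. Ccl3, a macrophage inflammatory protein gene, had 0, 3, 0 and 2 counts in CTR and 1, 3, 4 and 2 in CAC (exact permutation p = 0.1143, n = 4 against 4). Ccl4 had 2 counts in CTR replicate 2 and 2 in CAC replicate 3, and Ccl26 was at 0 in all 8 libraries.

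The 5 CXCR2 ligand genes with Cxcl names, which draw neutrophils, were almost absent from the libraries. Cxcl1, Cxcl3, Cxcl5 and Cxcl15 were at 0 in all 8 libraries, which allows up to 0.661 to 1.62 CPM per library. Cxcl2 was at 0 in the 4 CTR libraries and had 1, 0, 3 and 1 counts in CAC. Their receptor gene Cxcr2, chosen here after its values were seen, was at 0 in the 4 CTR libraries and had 2, 5, 7.5 and 4 counts in CAC. This was 8.28-fold higher when the CTR group is set to its floor of 3 counts and the CAC counts are taken without error. Cxcr2 was too low for the filtered fit and was called in the fit with no low-count filter (edgeR adjusted p = 0.000729). Because the gene was chosen by its values, that p-value adds no support. Genes listed as neutrophil markers moved with Cxcr2. The 14 genes of that list, Cxcr2 among them, summed to 6.64 to 6.92 CPM in CTR and 168 to 440 CPM in CAC. The sum in CAC was carried mainly by S100a8 (175 ± 85.7 CPM) and S100a9 (73.5 ± 28.1 CPM, SD, n = 4 mice). By staining, the paper places S100A9 protein within brown adipocytes, higher in CAC, and it reports no significant difference in neutrophil numbers. The 3 genes of the list that could be tested all rose in edgeR's test, S100a8 by a log2 of 5.57 (adjusted p = 0.00515), S100a9 by 5.45 (adjusted p = 0.000182) and the resistin-like gene Retnlg by 3.4 (adjusted p = 0.0155), and none of the 14 was at 0 in all libraries. All 3 passed the filter through the CAC libraries, and the Retnlg call was lost without CTR replicate 1, 2 or 4 (adjusted p up to 0.0738). Of the granule and surface genes below the filter, Lcn2 had 1.5 counts in CTR and 32 in CAC, Ngp 2 and 23, Ltf 1 and 11, Camp 0 and 7, Ly6g 0 and 2, Mpo 0 and 2 and Elane 0.5 and 2.66. The part of neutrophils in the counts of Cxcr2 and of these marker genes was not tested.

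The interferon-inducible ligands of CXCR3, which attract activated T cells, were carried by Cxcl9. Cxcl9 (ENSMUSG00000029417.10; chromosome 5, 92321347 to 92328079, - strand) had 32, 50, 40 and 61 counts in CTR and 11, 11, 47 and 27 in CAC. These were 11.5, 13.3, 16.6 and 13.4 CPM in CTR and 5.95, 5.85, 13.8 and 9.41 CPM in CAC. CAC replicates 1, 2 and 4 lay below all CTR libraries, while CAC replicate 3 lay within the CTR range. The mean was 13.7 ± 2.11 CPM in the CTR mice and 8.75 ± 3.74 CPM in the CAC mice (mean ± SD, n = 4), a log2 fold change of -0.55 (SE 0.24, edgeR unadjusted p = 0.0331, adjusted p = 0.328). With 1 library left out the log2 fold change of Cxcl9 ran from -0.9 to -0.42 (edgeR adjusted p from 0.122 to 0.554). Cxcl10 had at most 1 count and Cxcl11 at most 1.5 counts in any library. The T and NK cell markers summed to 4.98 to 9.36 CPM in CTR and 6.62 to 7.62 CPM in CAC, and none of those 11 genes could be tested. The receptor gene Cxcr3 had 6 counts in CTR and 4 in CAC.

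Homeostatic ligands gave the largest share of the counts. Cxcl12 (ENSMUSG00000061353.12; chromosome 6, 117168535 to 117181367, + strand) encodes the ligand of CXCR4 and of the atypical receptor ACKR3 that retains hematopoietic cells in their niche. It had 128, 159, 90 and 205 counts in CTR and 103, 91, 227 and 143 in CAC, or 46.1, 42.3, 37.3 and 45.2 CPM in CTR and 55.7, 48.4, 66.5 and 49.9 CPM in CAC. The groups did not overlap, as was also so for Ccl8, that is 2 of the 7 tested genes with CAC above CTR, against 3.64% of all genes tested, and 0 with CAC below CTR, against 3.40%. The log2 fold change of Cxcl12 was 0.37 (SE 0.13) and did not pass the threshold in edgeR's test (unadjusted p = 0.00833, adjusted p = 0.192). The receptor gene Cxcr4 had 6 counts in each group, and Ackr3 had 23.8 ± 6.36 CPM in the CTR mice and 25.6 ± 10.4 CPM in the CAC mice (mean ± SD, n = 4; log2 fold change 0.08, SE 0.28, edgeR adjusted p = 0.943).

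Cxcl14, known as a chemokine that brown adipocytes secrete, varied widely within each group. Its counts were 15, 54, 18 and 46 in CTR and 28, 30, 17 and 44 in CAC, which gave 5.4, 14.4, 7.47 and 10.1 CPM in CTR and 15.1, 16.0, 4.98 and 15.3 CPM in CAC. CAC replicate 3 had the lowest level of all 8 libraries and the other 3 CAC libraries the highest. The log2 fold change was 0.35 (SE 0.37, edgeR adjusted p = 0.759), and it ran from 0.17 to 0.68 with 1 library left out. Ccl27a, which encodes a ligand of the skin-homing receptor CCR10, had 59.5, 80.53, 55.3 and 82.03 counts in CTR and 24.7, 30.2, 54 and 63.7 in CAC, or 21.0 ± 2.04 and 16.9 ± 3.78 CPM (SD, n = 4 mice). Its log2 fold change was -0.28 (SE 0.17, edgeR adjusted p = 0.529). Of its 75-base stretches 33.3% also occur in other transcripts, among them that of Ccl27b, and its exons overlap Il11ra1 on the opposite strand, so its counts are uncertain.

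Cxcl13, the B cell attractant that acts through CXCR5, showed the clearest separation among the genes too low for the filter. Cxcl13 (ENSMUSG00000023078.7; chromosome 5, 95956951 to 95961068, + strand) had 2, 4, 1 and 8 counts in CTR and 12, 5, 15 and 12 in CAC. These were 0.72, 1.07, 0.415 and 1.76 CPM in CTR and 6.49, 2.66, 4.4 and 4.18 CPM in CAC. Every CAC library lay above every CTR library, and the mean was 0.991 ± 0.58 CPM in the CTR mice and 4.43 ± 1.57 CPM in the CAC mice (mean ± SD, n = 4). Its exact two-sided permutation p was 0.0286 (n = 4 against 4), the smallest that 70 assignments of the 8 libraries can give, and it was the only one of the 9 low but detectable genes to reach it. With 1 library left out the exact permutation p of Cxcl13 ran from 0.0286 to 0.0571, and it was weaker in 4 of the 8 runs. In the edgeR fit with no low-count filter its log2 fold change was 1.94 (SE 0.47, adjusted p = 0.00491), and 3 of the 30 genes of the family in that fit (Ccl8, Ccl6 and Cxcl13) were called higher, against 0.923% of its 23730 genes, with none lower, against 0.556%. Cxcl13 reached the filter level in 0 CTR and 3 CAC libraries, so it could enter a filtered fit only through the group where it was high. It did so in 5 of the 8 fits that left out 1 library, with adjusted p from 0.0242 to 0.116. Per 1000 counts of the macrophage list, a scale chosen after seeing the data, Cxcl13 had 2.86, 4.32, 1.85 and 6.96 counts in CTR and 17.7, 8.44, 10.0 and 10.8 in CAC. On that scale the groups did not overlap, and the part of the macrophage markers in the Cxcl13 difference was not tested. The 8 B and plasma cell markers summed to 85.0 to 98.6 CPM in CTR and 71.4 to 124 CPM in CAC, and Cxcr5 had 5 counts in CTR and 1 in CAC.

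Ccl21a, the CCR7 ligand of lymphatic endothelium, had 5.8, 4.2, 5 and 10.2 counts in CTR and 5, 5.2, 23.2 and 3.2 in CAC. In CPM these were 2.16, 1.07, 2.07 and 2.2 in CTR and 2.7, 2.66, 6.74 and 1.05 in CAC. CAC replicate 3 stood highest, CAC replicates 1 and 2 lay just above CTR, and CAC replicate 4 was lowest. The exact permutation p was 0.3429 (n = 4 against 4), and 0.0286 to 0.6571 with 1 library left out. The 5 other lymphatic endothelial markers summed to 31.4 CPM in CAC replicate 3, against 13.0 to 27.2 CPM in the other 7 libraries. Of those 5, Lyve1 was highest in CAC replicate 3 and Pdpn, Prox1, Flt4 and Mmrn1 were not. Of its 75-base stretches 61.3% are shared with near-identical copies, and Ccl21b and Ccl21d had the same fractional value as each other in every library, between 0 and 1.2 counts. Ccl25, a thymus and gut ligand of CCR9, had 10, 8, 9 and 16 counts in CTR and 2, 4, 9 and 7 in CAC (exact permutation p = 0.0857, n = 4 against 4), and its exons overlap Elavl1 on the opposite strand. The other homeostatic genes, Ccl19, Ccl27b, Ccl28 and Cxcl17, had between 0.5 and 8.17 counts over all 8 libraries.

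The membrane-anchored ligands were detectable and overlapped between groups. Cx3cl1 (fractalkine), made by endothelium and neurons, had 7, 6, 5 and 6 counts in CTR and 3, 3, 6 and 2 in CAC (exact permutation p = 0.2571, n = 4 against 4). Cxcl16, a scavenger receptor and ligand of CXCR6, had 13, 2, 11 and 16 counts in CTR and 2, 10, 10 and 5 in CAC (exact permutation p = 0.7143, n = 4 against 4), and its exons overlap Zmynd15 on the opposite strand. The 5 genes grouped as ligands of CCR4, CCR6, CCR8 and XCR1, a group without Ccl8, gave 1 count in CTR and 3 in CAC, from Ccl17 and Xcl1. Ccl1, Ccl20 and Ccl22 were at 0 in all 8 libraries.

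**Figure D3:**
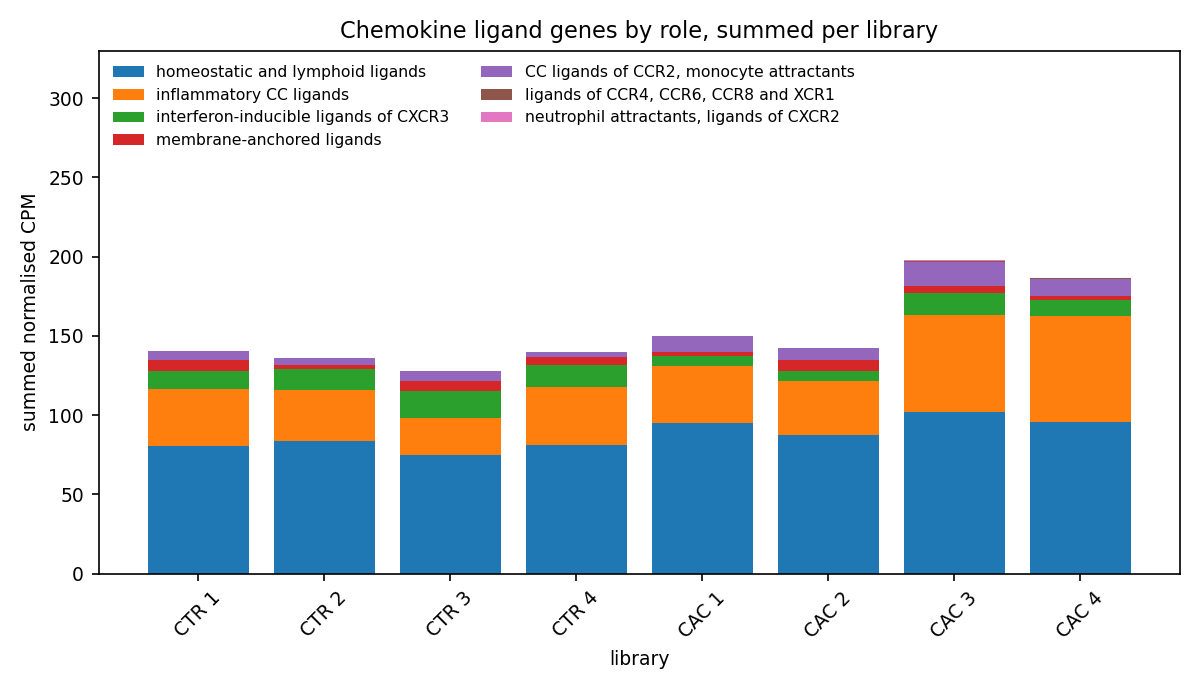
Summed normalised CPM (y axis) of the 39 chemokine ligand genes in each of the 8 libraries (x axis), stacked by the role of the ligand. The total was 128 to 141 CPM in CTR and 143 to 198 CPM in CAC, and CAC replicates 3 and 4 stand highest, with 61.2 and 66.9 CPM of inflammatory CC ligands.

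Summed over the family, the 39 genes reached 136 ± 5.83 CPM in the CTR mice and 169 ± 27.2 CPM in the CAC mice (mean ± SD, n = 4). CAC replicates 1 and 2, at 150 and 143 CPM, lay close to CTR, whereas CAC replicates 3 and 4 reached 198 and 187 CPM. The inflammatory CC ligands differed most between these libraries, with 36.2 and 34.0 CPM in CAC replicates 1 and 2 and 61.2 and 66.9 CPM in CAC replicates 3 and 4, beside 23.2 to 36.4 CPM in CTR. The homeostatic ligands were more even, with 75.1 to 83.6 CPM in CTR and 87.7 to 102 CPM in CAC. The CXCR3 ligands were at 11.5 to 16.6 CPM in CTR and 5.95 to 13.8 CPM in CAC.

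**Figure D4:**
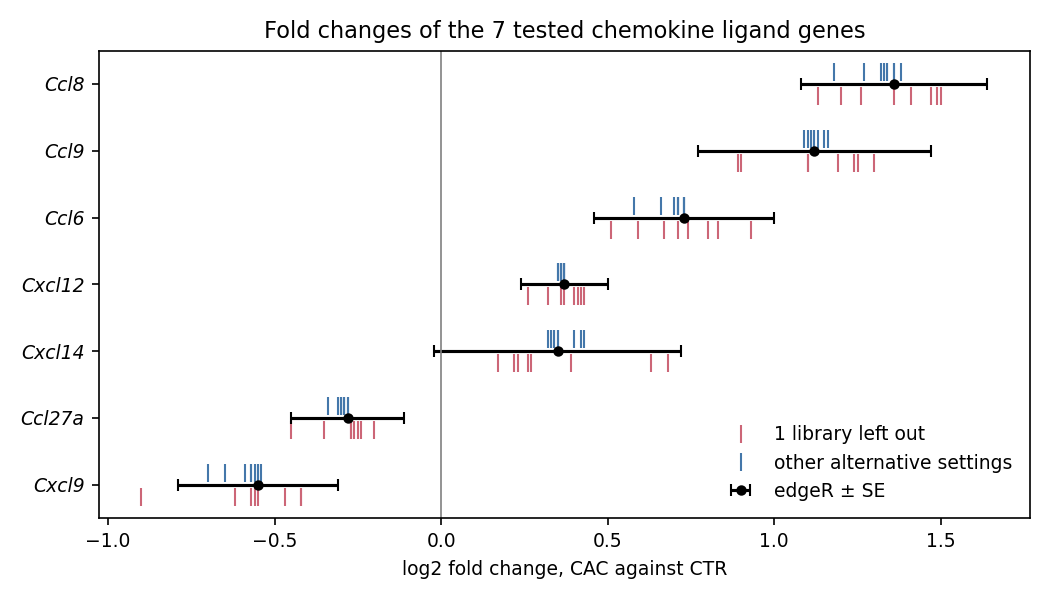
Log2 fold change of CAC against CTR (x axis) of the 7 tested chemokine ligand genes, as the edgeR estimate ± SE (black), with red ticks for the 8 fits that each left out 1 library and blue ticks for the other settings. All ticks of a gene lie on the same side of 0, and those of Ccl8 run from 1.13 to 1.5.

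Of 19 chemokine receptor genes, 2 could be tested and neither was called (0 at an unadjusted p below 0.05 in edgeR's test, and 1 gene, Cxcr2, in the fit with no low-count filter). Ccr2, the monocyte receptor, had 6.48, 3.73, 6.22 and 3.31 CPM in CTR and 3.78, 5.32, 4.4 and 6.97 CPM in CAC, and the groups overlapped (log2 fold change 0.14, SE 0.31, edgeR adjusted p = 0.907). Cx3cr1, the fractalkine receptor of monocytes and resident macrophages, had 5.01 ± 1.68 CPM in the CTR mice and 5.02 ± 1.08 CPM in the CAC mice (mean ± SD, n = 4; log2 fold change -0.03, SE 0.3, edgeR adjusted p = 0.982). Ccr8 was at 0 in all 8 libraries, as were Ccr1l1 and Cxcr1, and the CCR1 gene had 2 counts in CTR and 3 in CAC.

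Among 15 genes for atypical receptors and ligand-processing enzymes, 10 could be tested and 2 rose. Ackr1, the atypical receptor of venular endothelium and erythrocytes that binds many inflammatory chemokines, had 1.44, 2.93, 2.07 and 1.54 CPM in CTR and 5.95, 3.72, 7.33 and 5.23 CPM in CAC. The log2 fold change was 1.49 (SE 0.35, edgeR adjusted p = 0.0432). Ackr1 reached the filter level in 0 CTR and 4 CAC libraries, so it was tested only because of its level in CAC. The call was lost in 6 of the 8 fits that left out 1 library (adjusted p up to 0.189; kept without CTR replicate 2 or CAC replicate 2) and also with library size only (adjusted p = 0.0536), with the replicate block (0.0638) and in limma-trend (0.0842), and DESeq2 gave Ackr1 no adjusted p. Of 6 erythrocyte markers 1 was called, the band 3 gene Slc4a1 (log2 fold change 3.88, edgeR adjusted p = 0.00343), which reached the filter level in 0 CTR and 4 CAC libraries. The other 5 had positive log2 fold changes, overlapped between groups and had adjusted p from 0.28 to 0.388. Of 8 endothelial markers 0 were called in edgeR's test, with 1 higher and 1 lower at an unadjusted p below 0.05. The von Willebrand factor gene Vwf had 5.03 CPM in CTR and 8.67 CPM in CAC (log2 fold change 0.78, edgeR unadjusted p = 0.00796, adjusted p = 0.186) and Kdr had 169 and 135 CPM (-0.32, unadjusted p = 0.017, adjusted p = 0.259). The part of blood and endothelial cells in the Ackr1 difference was not tested. Mmp3, a matrix metalloproteinase that can cleave chemokines, had 3.96, 5.86, 4.15 and 5.07 CPM in CTR and 12.4, 11.7, 13.8 and 9.06 CPM in CAC, without overlap (log2 fold change 1.27, SE 0.24, edgeR adjusted p = 0.00998, and 0.0528 without CAC replicate 3). Of 8 tested fibroblast and progenitor markers 5 had a positive and 3 a negative log2 fold change, with 1 called, the progenitor gene Ly6a (1.02, edgeR adjusted p = 0.000238). Col3a1 (-0.59, adjusted p = 0.423), Lum (-0.33) and Col1a1 (-0.15) were the negative ones, and the list summed to 500 to 648 CPM in CTR and 480 to 707 CPM in CAC.

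**Figure D5:**
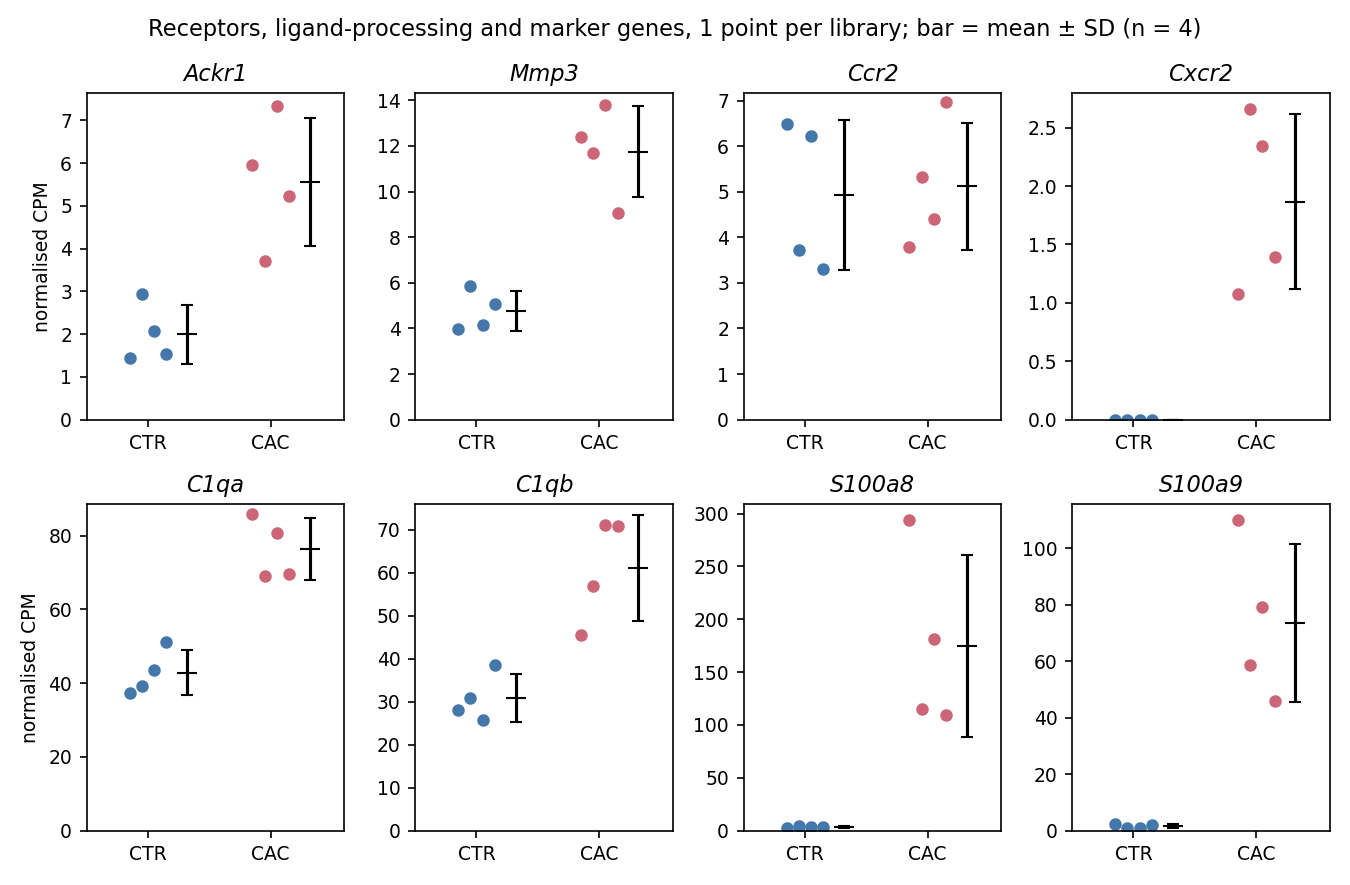
Normalised CPM (y axis, linear from 0) of Ackr1, Mmp3, 2 chemokine receptor genes, 2 macrophage markers and 2 neutrophil markers, with 1 point per library, CTR in blue and CAC in red, and the mean ± SD of 4 mice. CAC lies above CTR without overlap in every panel except Ccr2, and Cxcr2 is at 0 in all CTR libraries.

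Downstream of the receptors, 18 of 29 signalling genes could be tested and 1 was called. Gnb2, a G protein beta subunit gene, fell from 9.32 ± 2.83 to 3.49 ± 0.774 CPM (SD, n = 4 mice; log2 fold change -1.37, SE 0.29, edgeR adjusted p = 0.019), a call lost when CTR replicate 1 or either of CAC replicates 2 and 3 was left out (adjusted p up to 0.0862). Gnb2 reached the filter level in 4 CTR and 2 CAC libraries, so the CTR group, where it was high, sufficed for it to be tested. The median log2 fold change of those 18 genes was 0.05. Of 14 genes for NF-kB factors and their inhibitors, which control many inflammatory chemokine promoters, 10 could be tested and 0 were called at an adjusted or an unadjusted p below 0.05 in edgeR's test. The count at the adjusted threshold was also 0 in the 9 alternative settings. The smallest p-values belonged to the kinase gene Ikbkb (log2 fold change 0.21, SE 0.12, edgeR adjusted p = 0.492) and the inhibitor gene Nfkbia (0.15, SE 0.11, adjusted p = 0.618). The median log2 fold change of the 10 tested genes was 0.18, beside 0.00 over all genes tested, with 8 positive and 2 negative. The 14 genes summed to 199 to 216 CPM in CTR and 219 to 248 CPM in CAC, without overlap.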

How the data were processed

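Single-end 75-base reads of BAT RNA were obtained from 4 CTR and 4 CAC mice, grouped by their labels. Per the submitters' processing notes and the study's methods, the authors ran FastQC 0.11.9, aligned to mm10 with HISAT2 2.2.1 and counted with featureCounts and its multi-mapping option (strand setting not given in the sources used here). The deposited expected counts hold fractions of reads and no normalization, with 1823167 to 4827956 per library. The signal table that the authors normalized with DESeq2 served for limma-trend (1 added before the log2).

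Rounded counts were filtered by filterByExpr, scaled by TMM and compared between CAC and CTR in edgeR 4.0.16 (R 4.3.3, robust quasi-likelihood, no covariate), with p-values of 9876 genes adjusted by Benjamini-Hochberg at 0.05, a procedure tested on simulated data. Genes below the filter with at least 10 counts were compared by exact two-sided permutation of CPM. The labels name 4 mice per group and no batch, so p-values measure the spread between these mice. Ensembl IDs were matched to GENCODE M21 without version (91.4%; 0.06% with it).

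Named genes are every member with at least 10 counts, pathway-list genes with an adjusted p below 0.05 or else the 2 smallest p, and at most 3 called genes per marker list. Receptors of described ligands, and low genes, were added after their values were seen. Some genes of the lists are not reported here. The members and lists were chosen with earlier results of these data known. Alternatives were DESeq2 1.42.0, RLE, library-size and upper-quartile scaling, no filter, at least 10 counts in every library, decimals dropped, a replicate block, limma-trend (limma 3.58.1), count minimums of 3 and 20, and each library left out. Python 3.11.15 (with matplotlib 3.10.9, numpy 2.4.6 and pandas 2.3.3) made the tables and plots.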

Additional observations from a re-analysis of the deposited data

Results flagged for a closer look

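In 5 of 56 groups of 4 libraries examined, 1 library stood far from the other 3 of its group, where chance gives about 1 in 20. CAC replicate 3 had 4.98 CPM of Cxcl14, where the other CAC libraries had 15.1 to 16.0 CPM. CTR replicate 2 had 1.07 CPM of Ccl21a, where the other CTR libraries had 2.07 to 2.2 CPM, and 2.13 CPM of Ccl25, where they had 3.53 to 3.73 CPM. CAC replicate 4 had 0.697 CPM of Cx3cl1, and the other CAC libraries 1.6 to 1.76 CPM. CTR replicate 1 had 30.2 CPM of the progenitor marker Ly6a, and the other CTR libraries 39.9 to 41.5 CPM. Ccl21a, Ccl25 and Cx3cl1 rest on 2 to 16 counts in these libraries.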

How the results depend on the processing

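The direction of each of the 7 tested genes was the same in all settings run. The number of chemokine ligand genes called higher in CAC was 1 in the fit as reported, 3 with no low-count filter (Ccl8, Ccl6 and Cxcl13), 0 in limma-trend, and 0 to 3 when each library was left out (0 without CTR replicate 2 or CAC replicate 3, 3 without CAC replicate 2); without CTR replicate 4 the 1 gene called was Cxcl13. No setting called a gene lower. Ccl8 ran from 1.13 to 1.5 when each library was left out, with adjusted p from 0.0124 to 0.106. Ccl6 was past the threshold without CAC replicate 2 (0.93) and with no filter (0.7). Over all genes, 92 were called in the fit as reported, 351 with no filter, and 42 to 135 with 1 library left out. Of low genes, Ccl11 (log2 ratio of mean CPM 0.01) gave -0.09 with no filter and -1.29 to 0.89 with 1 library left out, Ccl24 (-0.14) gave -0.35 to 0.14 and Cxcl16 (-0.26) gave -0.79 to 0.0. The other low genes kept their direction. Ccl3 (1.69) gave 1.28 to 2.77, Ccl5 (0.24) 0.06 to 0.58, Ccl21a (0.81) 0.19 to 1.1, Ccl25 (-0.65) -0.81 to -0.44, Cx3cl1 (-0.41) -0.54 to -0.18 and Cxcl13 (2.16) 1.91 to 2.6. The exact permutation p of Ccl21a and of Ccl25 went as low as 0.0286. Detectable genes numbered 25 at a minimum of 3 counts and 14 at 20. The cause of these shifts was not tested. Deviations from the group mean were little correlated between same-numbered libraries (r = 0.031, -0.023, 0.028 and 0.036), and r ran from -0.053 to 0.036 between differently numbered ones. So few libraries cannot show whether the numbers pair the mice. With the replicate block, 140 genes were called, 1 of them in the family. In that fit Ccl8 stood at 1.27 on the log2 scale (edgeR adjusted p = 0.0181), while Ackr1 had an adjusted p of 0.0638. At this depth, 23 of the 39 genes had under 10 counts, and none of them was called with the low-count filter or without it. Such counts leave a difference in them unresolved.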

Other observations

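The platelet chemokine genes, which the name rule leaves out, overlapped between groups. Pf4 (platelet factor 4) ranged from 18.4 to 25.8 CPM in CTR and from 16.8 to 29.9 CPM in CAC (edgeR adjusted p = 0.997). Ppbp had 23 counts in CTR and 22 in CAC.

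A pair of genes that handle chemokines were too low for the filter and were chosen because their values separate the groups, so no test is given. Mmp8, the neutrophil collagenase, had 1 count in CTR and 10 counts in CAC. Pitpnm3, described as a receptor for CCL18, had 9 counts in CTR, at 0.415 to 1.07 CPM per library, and 0 counts in CAC. Mmp8 is also one of the 14 neutrophil markers.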
